A study of Mus musculus with 6 samples.

Results

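The 55 chemokine and chemokine receptor genes of the array were followed in cardiomyocyte fractions of hearts under pressure load, in mice with and without H19, an imprinted long non-coding RNA. The members were all genes whose name in the array files begins with Ccl, Cxcl, Cx3cl, Ccr, Cxcr or Cx3cr and a digit, with each gene taken by its brightest probe. They were 55 of 35427 genes on the array, 36 of them ligands and 19 receptors, and they were covered by 68 probes. All mice were adults whose aortic arch had been narrowed by transverse aortic constriction (TAC), an operation that makes the left ventricle pump against a raised pressure. Cardiomyocytes were isolated 6 weeks after TAC by retrograde perfusion of the heart, and their RNA was hybridised to 1-colour Agilent arrays. H19 knockout (H19 KO) mice gave 3 arrays and their wild-type (WT) littermates gave 3 arrays. The knockout allele and the strain are not given in the sources used here, and the constriction was common to both genotypes. Whether an array stands for a single mouse is not said in the labels, so the p-values cover only the variation among the samples hybridised, which may be technical.

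Chemokines are small secreted proteins that draw leukocytes along a gradient by binding receptors that couple to inhibitory G proteins. The CC, CXC and CX3C families are named for the spacing of the first cysteines. Inflammatory members are switched on by NF-kB, interferon or injury signals, whereas homeostatic members such as Cxcl12 guide cell traffic at rest. In the pressure-loaded heart, Ccl2 and its receptor Ccr2 are known for the recruitment of monocytes that become macrophages. Most receptors are carried by leukocytes rather than by myocytes.

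H19 itself checked the genotype labels. Its level, on the log2 scale relative to each array's 75th percentile, was -6.32 ± 0.38 on H19 KO arrays and 0.80 ± 0.53 on WT arrays (SD, n = 3 each). It was well above background on 0 H19 KO arrays and on 3 WT arrays, and it was at least 32.7-fold higher in WT (limma, adjusted p = 0.00236). On each array 59305 spots were not controls, of which 48.8% to 58.6% passed the scanner's well-above-background flag and 0 were saturated. The 10 cardiomyocyte markers were all tested, with a median difference of -0.04, and their summed linear level (in units of the 75th percentile) was 1696 to 1960 on H19 KO arrays and 1886 to 2049 on WT arrays. The fraction also carried 17 tested macrophage markers and 10 fibroblast markers. Summed levels cover every marker on the array, tested or not. For the 19 macrophage markers they were 49.5 to 92.1 in H19 KO and 72.1 to 102.8 in WT. For the 10 fibroblast markers they were 170.4 to 427.0 in H19 KO and 116.3 to 253.9 in WT. A few arrays stood apart in the chemokine genes. H19 KO replicate 1 was the lowest array for 16 of the 36 tested members, while H19 KO replicate 2 and WT replicate 3 were each the highest for 9. The deviations of the tested members from their means over 6 arrays had medians of -0.51, 0.36 and -0.15 on H19 KO replicates 1, 2 and 3, and 0.28, -0.11 and -0.05 on WT replicates 1, 2 and 3. Over all genes the same medians ran between -0.13 and 0.06.

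Ligands were detected far more widely than receptors. Of the 36 ligand genes, 21 were well above background on all 6 arrays, among them Ccl2, Ccl3, Ccl4, Ccl5, Ccl6, Ccl7, Ccl8, Ccl9, Ccl11, Ccl12, Ccl24 and Cxcl12. Of the 19 receptor genes only 3 were, namely Cxcr4, the receptor of Cxcl12, Cxcr7 (current symbol Ackr3), an atypical receptor that scavenges Cxcl12, and Cx3cr1, the fractalkine receptor of monocytes and resident macrophages. A further 17 members were well above background on 1 to 5 arrays, and 14 on none. Those 14 were the ligands Ccl1, Ccl17, Ccl20, Ccl22, Ccl26, Ccl28, Cxcl3, Cxcl15 and Cxcl17 and the receptors Ccr1, Ccr4, Ccr8, Cxcr1 and Cxcr5. Members well above background on at least 3 arrays were tested, which gave 25 ligands and 11 receptors. Beside the 14, the 5 members Ccr1l1, Ccr2, Ccr3, Cxcl5 and Cxcl10 reached 1 or 2 arrays and were not tested. Under the scanner's more lenient flag for a positive and significant signal, 47 members reached 3 arrays.

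**Figure D1:**
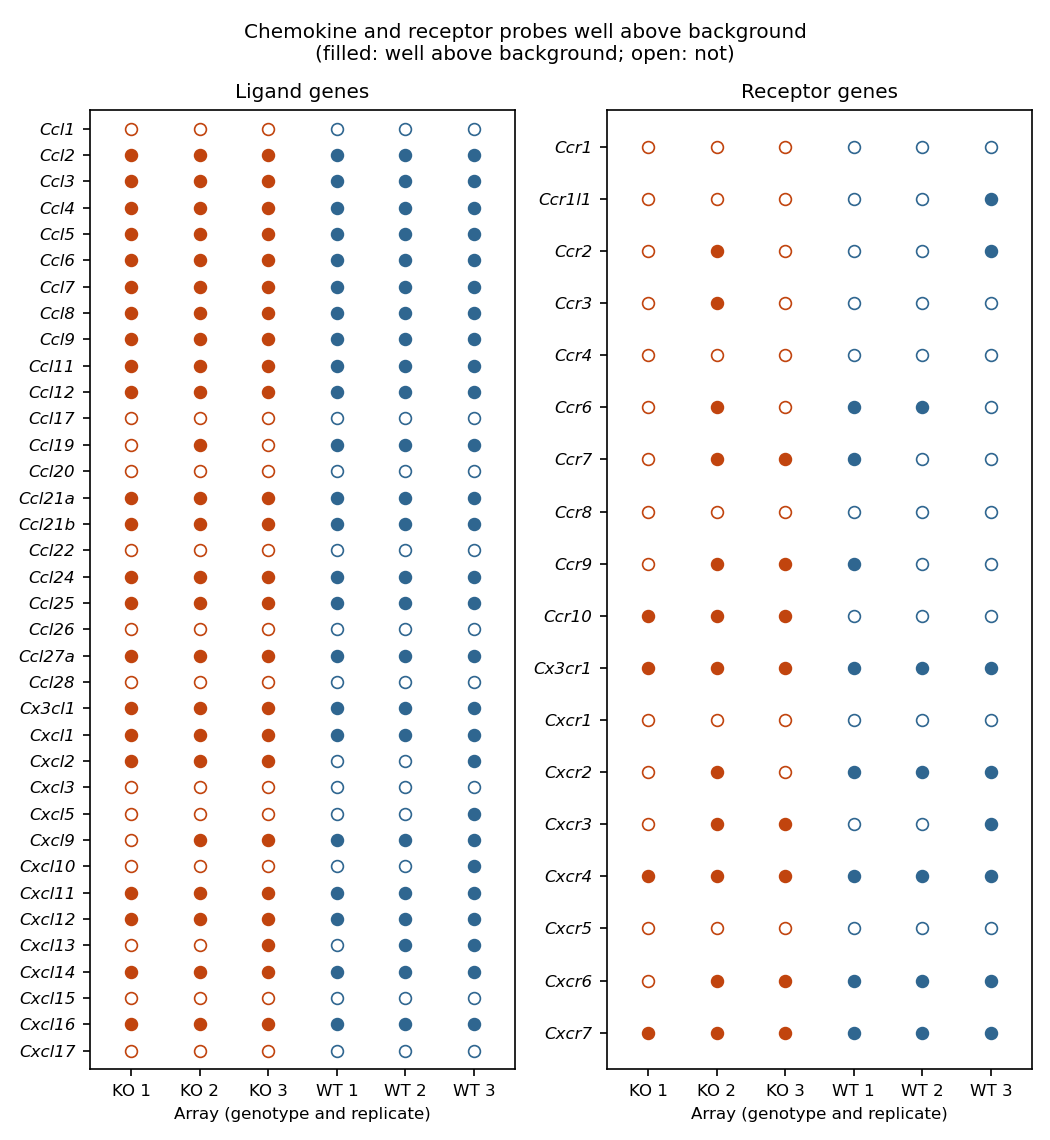
Detection of the 36 ligand genes and 18 of the 19 receptor genes on each array (columns; H19 KO replicates 1 to 3 in red, WT replicates 1 to 3 in blue). Filled circles mark a probe well above background. In all, 24 members were filled on all 6 arrays, 21 of them ligands, and 14 members were open on all 6.

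Set beside their known ligands, the receptors fell into few complete pairs. The receptor-ligand pairs were written down after these values were known and cover 17 receptors. For 10 of them the receptor and at least 1 ligand were tested, and for 3 (Cxcr4, Cxcr7 and Cx3cr1) both sides were well above background on all 6 arrays. For 5 the ligand was tested and the receptor was not. Ccr1, which binds Ccl3, Ccl5, Ccl6, Ccl7 and Ccl9 in mouse, passed the background flag on 0 arrays, and those 5 ligands passed it on all 6. Ccr2 was well above background on H19 KO replicate 2 and WT replicate 3 only, while Ccl2, Ccl7 and Ccl12 were on all 6. Arrays show RNA in the fraction, and a receptor not well above background has only an upper bound here.

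For Cxcl11, an interferon-induced Cxcr3 ligand, and for the Ccl21 genes the probe sequences are shown because other genes share them. The Cxcl11 probe holds a stretch, set in capitals, that also occurs in 6 probes of other genes and in 15 of 32851 promoter windows from RefSeq (0.0457%). The mean levels of those 6 probes had a median of 6.37 and ran between 1.57 and 7.98.
Cxcl11: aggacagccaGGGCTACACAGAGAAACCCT
The Cxcl11 probe read 6.84, 6.68 and 6.68 on H19 KO arrays and 6.67, 6.93 and 6.73 on WT arrays. The gene's other probe read 1.12, 0.80 and 1.18 on H19 KO arrays and 0.91, 1.42 and 1.01 on WT arrays. The genotypes overlapped for both probes, and the part of the shared stretch in the signal was not tested. Of the 68 member probes, 64 shared no run of 20 bases with the promoter window of another gene. The Cx3cr1 probe shares a run with 1 probe listed under another gene name and with no promoter window of another gene. The gene's other probe was well above background on 2 of 6 arrays. Whether that name stands for a separate gene, and whether the shared run enters the Cx3cr1 readings, was not tested.

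Ccl21a and Ccl21b, near-identical genes for the Ccr7 ligand of lymphatic vessels, cannot be separated with confidence. Their probes overlap by 56 bases with 2 mismatches, and the stretches below differ at the capital base.
Ccl21a: atacctaactgaataaaaaGgtgatccagc
Ccl21b: atacctaactgaataaaaaAgtgatccagc
Ccl21a read 2.40, 3.48 and 2.99 on H19 KO arrays and 3.47, 3.19 and 2.65 on WT arrays. Ccl21b read 2.56, 3.64 and 3.02 on H19 KO arrays and 3.62, 3.34 and 2.86 on WT arrays. The arrays took the same order for both, and the genotypes overlapped.

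No chemokine or receptor gene passed the test between genotypes. At an adjusted p of 0.05 (limma, Benjamini-Hochberg over all genes), 0 of 36 tested members were called, where 7 of 21888 genes were (0.032%; 0.00457% higher and 0.0274% lower in H19 KO). The smallest adjusted p of a member was 0.610. At an unadjusted p of 0.05, 5 members passed (13.9%), against 7.94% of all genes. Of these, 3 were higher in H19 KO, against 0.996% of all genes, and 2 were lower, against 6.95%. The 3 H19 KO arrays lay all above or all below the 3 WT arrays for 5 members (13.9%) and for 10.5% of all genes. Ccl3 and Cxcl2 were the 2 higher ones (1.83% of all genes), and Ccl8 and Cxcl9 were among the 3 lower ones (8.67% of all genes). The median difference, H19 KO minus WT, was -0.17 over the members and -0.06 over all genes, and 13 of 36 members (36.1%) had a positive difference, against 36.3% of all genes. The middle 50% of the members ran between -0.54 and 0.31, wider than the -0.28 to 0.05 of all genes. On the 2 slides taken apart, 20 members had the same sign and 16 had opposite signs. Single arrays weighed on these summaries. The members' median was 0.011 without H19 KO replicate 1 and -0.45 without H19 KO replicate 2, and of the 26 members followed one by one, 24 moved by over 1.5 times or changed sign when some single array was left out. With 2 arrays against 3, non-overlap is easier for every gene. Non-overlapping members were 22.2%, 33.3%, 27.8% and 30.6% without H19 KO replicate 1, H19 KO replicate 2, WT replicate 1 and WT replicate 3, where the shares of all genes were 24.6%, 20.4%, 16% and 29.7%. They were 16.7% without H19 KO replicate 3 and 13.9% without WT replicate 2, where the shares of all genes were 16.3% and 15.2%. Scaling each array to its median over probes in place of its 75th percentile (median scaling) added 0.42 to every difference, so that those between -0.42 and 0 turned positive, and the median over all genes became 0.36. Relative to that median each member stood where it did before. Positive differences then numbered 25 of 36 (69.4%). Of 9 non-overlapping members 8 were then higher in H19 KO, as were 4 of 4 with quantile normalization and 2 of 5 as reported. Non-overlapping members were 25% under median scaling and 11.1% with quantile normalization, where the shares of all genes were 13.7% and 10.3%. The split of all genes by direction is given here only for the values as reported.

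**Figure D2:**
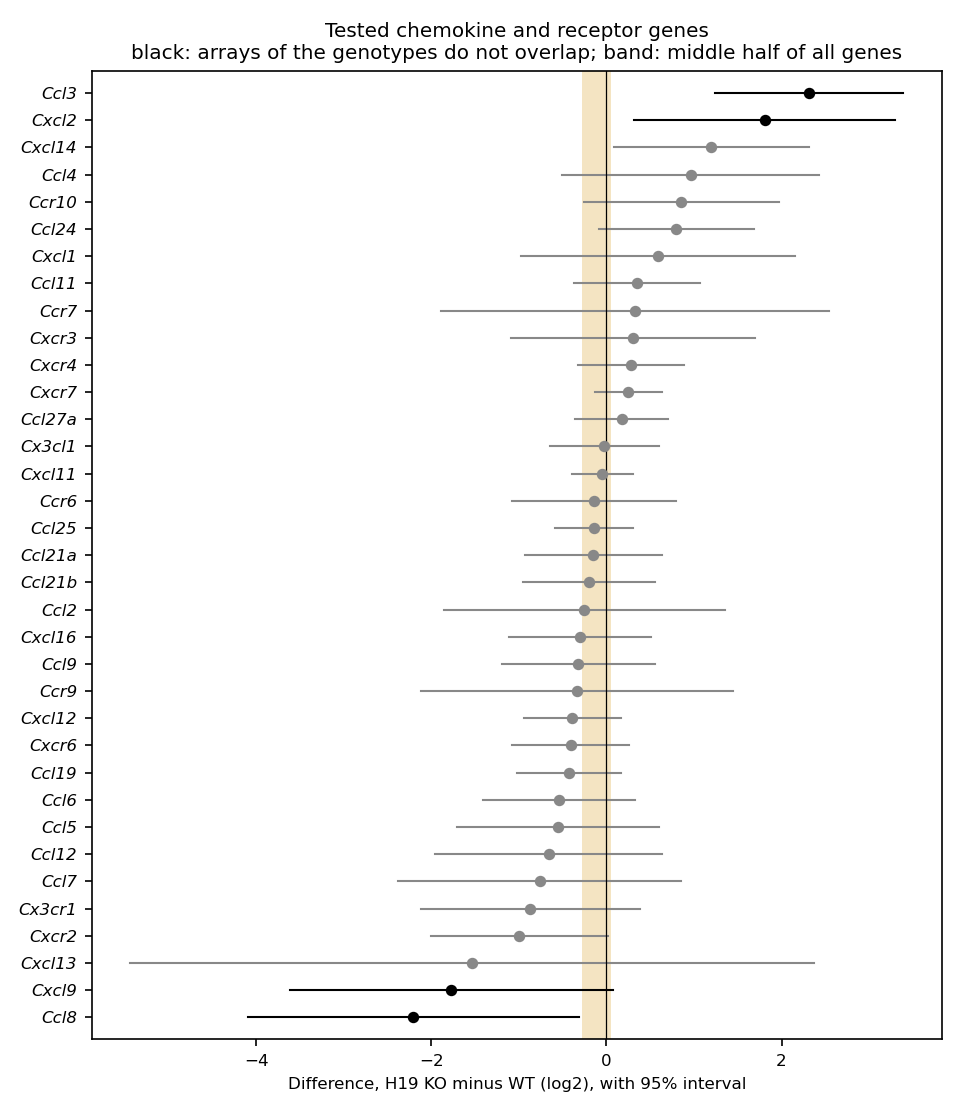
Difference between genotypes, H19 KO minus WT (log2), with its 95% interval for 35 of the 36 tested members, ordered by size. Black marks the 4 members drawn whose arrays do not overlap, and the band is the middle 50% of all 21888 genes. Ccl3 lies at 2.31 at the top and Ccl8 at -2.21 at the bottom.

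Ccl3 (MIP-1 alpha), which attracts monocytes and T cells, had the smallest p of the members. Its probe (chromosome 11, 83461358 to 83461417, mm9) read -0.98, 0.07 and 0.15 on H19 KO arrays, against -2.91, -3.10 and -1.69 on WT arrays. All 3 H19 KO arrays lay above all 3 WT arrays. The difference was 2.31 (SE 0.45, 95% interval 1.23 to 3.39, limma adjusted p = 0.610), which is 4.97-fold, and Ccl3 ranked 52 by p among 21888 genes. Within slide 1, which held 1 array of each genotype, it was 1.93, and within slide 2, which held 2 of each, it was 2.50. Leaving out WT replicate 3 gave 2.75 (adjusted p = 0.0512), and the remaining arrays left out in turn gave 2.05 to 2.67. Under median scaling it was 2.74 with an adjusted p of 0.000106. Its neighbour Ccl4 (MIP-1 beta), a monocyte and T cell attractant, read 0.37, 1.43 and 0.34 on H19 KO arrays and -0.49, -1.34 and 1.08 on WT arrays. WT replicate 3 lay inside the H19 KO range, and the difference was 0.96 (SE 0.62, adjusted p = 0.756). It was 0.61 without H19 KO replicate 2, 0.42 without WT replicate 2 and 1.63 without WT replicate 3 (adjusted p = 0.0690).

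The 250 bases before the annotated start of Ccl3 (RefSeq, GRCm38.p6, chr11:83649379-83649628, minus strand) held no match to any of the 4 motifs searched.
Ccl3: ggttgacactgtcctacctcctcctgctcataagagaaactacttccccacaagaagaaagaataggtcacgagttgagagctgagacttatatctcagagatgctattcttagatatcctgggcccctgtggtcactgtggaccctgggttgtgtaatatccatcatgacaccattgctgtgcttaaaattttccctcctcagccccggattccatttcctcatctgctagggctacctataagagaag
The motifs, each looked for on both strands, were NF-kB (GGG and TTCC with any 3 bases between), the interferon element ISRE (GAAA and GAAA with any 2 bases between), AP-1 (TGA and TCA with any 1 base between) and the STAT element GAS (TTC and GAA with any 3 bases between). They occurred in 4.65%, 2.98%, 6.75% and 7.02% of 32851 promoter windows. Of the 40 members with a window, 9 held the NF-kB letters, 3 ISRE, 5 AP-1 and 4 GAS. Each window spans 300 bases around the start, but only the 250 bases before the start were searched, in members and in all windows. Members are counted by gene, with a match in any of a gene's windows, whereas the percentages count single windows, so the units differ. A match is a description of letters and not of a bound site.

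Cxcl2 (MIP-2), a neutrophil attractant that acts through Cxcr2, was the other member higher on all H19 KO arrays. Its probe (chromosome 5, 91334534 to 91334593, mm9) read -2.91, -2.56 and -2.79 on H19 KO arrays, against -5.67, -5.01 and -3.01 on WT arrays. It was well above background on 3 H19 KO arrays and, in WT, on replicate 3 alone, which lay within 0.1 of the lowest H19 KO array. The difference was 1.81 (SE 0.63, adjusted p = 0.622), with 2.76 on slide 1 and 1.33 on slide 2. Without WT replicate 3 it was 2.58 with an adjusted p of 0.0421, the 1 member called in that setting, and neither remaining WT array was well above background. Without WT replicate 1 it was 1.26. With normexp background correction it was 0.65 (adjusted p = 0.690), and under median scaling it was 2.23 (adjusted p = 0.00945). Cxcl1 (KC), its neighbour on chromosome 5 and likewise a Cxcr2 ligand, read 0.42, 0.57 and 0.45 on H19 KO arrays and -1.30, -0.56 and 1.52 on WT arrays. The H19 KO arrays lay close together between the WT arrays, and the difference of 0.59 (SE 0.66) was -0.0046 without WT replicate 1.

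Both promoters are shown because Cxcl1 and Cxcl2 are neighbours, both read highest in WT on replicate 3, and both hold the NF-kB letters, set in capitals (GRCm38.p6, plus strand, chr5:90903649-90903898 and chr5:90890995-90891244).
Cxcl2: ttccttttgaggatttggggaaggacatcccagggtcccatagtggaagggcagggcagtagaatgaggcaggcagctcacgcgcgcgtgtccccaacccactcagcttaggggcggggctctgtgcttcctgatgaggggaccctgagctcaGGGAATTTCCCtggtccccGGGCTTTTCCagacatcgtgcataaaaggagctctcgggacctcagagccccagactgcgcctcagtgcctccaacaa
Cxcl1: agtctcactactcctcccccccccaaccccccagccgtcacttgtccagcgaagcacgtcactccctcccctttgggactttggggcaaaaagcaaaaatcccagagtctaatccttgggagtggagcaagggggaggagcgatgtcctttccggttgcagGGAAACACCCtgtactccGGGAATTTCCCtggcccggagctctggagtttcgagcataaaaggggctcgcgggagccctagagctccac
The matches begin 97, 96 and 78 bases before the start in Cxcl2 and 89, 71 and 70 before it in Cxcl1. In each gene a pair of these matches, 1 per strand, overlap in the longer run of capitals. Ccl8 and Cxcl9 were also highest in WT on replicate 3 and held none of the motifs searched. A tie between the letters and the readings was not tested. The remaining Cxcr2 ligands were dim. Cxcl5 was well above background on WT replicate 3 alone, at -0.76, and the other 5 arrays, WT replicates 1 and 2 among them, were dim at -4.69 or less, so no fold is given. Cxcl3 and Cxcl15 were dim (not well above background) on all 6 arrays. Cxcl3 holds the NF-kB letters too, as do Ccl1 and Ccl20, which were also dim on all 6. Cxcr2 itself read -3.58, -3.39 and -3.84 on H19 KO arrays and -1.65, -2.77 and -3.40 on WT arrays. It was well above background on 3 WT arrays and, in H19 KO, on replicate 2 alone, so the difference of -0.99 (SE 0.42, adjusted p = 0.627) runs in part against dim readings. WT replicate 3 lay among the H19 KO arrays, and without WT replicate 1 the difference was -0.51.

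Genes of the early stress response also had higher readings in H19 KO. Of 14 tested immediate early and heat shock genes 0 were called, and 7 had an unadjusted p under 0.05 (limma), against 7.94% of all genes. All 14 differences were positive (median 0.76), where 36.3% of all genes had a positive difference and a median of -0.06. Without overlap 7 of the 14 were higher, as were 1.83% of all genes. Their mean deviations were 0.58, 0.37 and 0.26 on H19 KO replicates 1 to 3, against -0.64, -0.60 and 0.03 on WT replicates 1 to 3. Egr2, a zinc finger factor, differed by 2.16 (SE 0.52) and Hspa1a, an inducible heat shock protein, by 1.61 (SE 0.37). WT replicate 3 was the highest WT array for the mean of these genes and for Ccl3, Ccl4, Cxcl1 and Cxcl2. Within H19 KO the order differed. The mean of these genes was highest on replicate 1, which was the lowest H19 KO array for Ccl3, Cxcl1 and Cxcl2. The part of this response in the chemokine values was not tested.

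**Figure D3:**
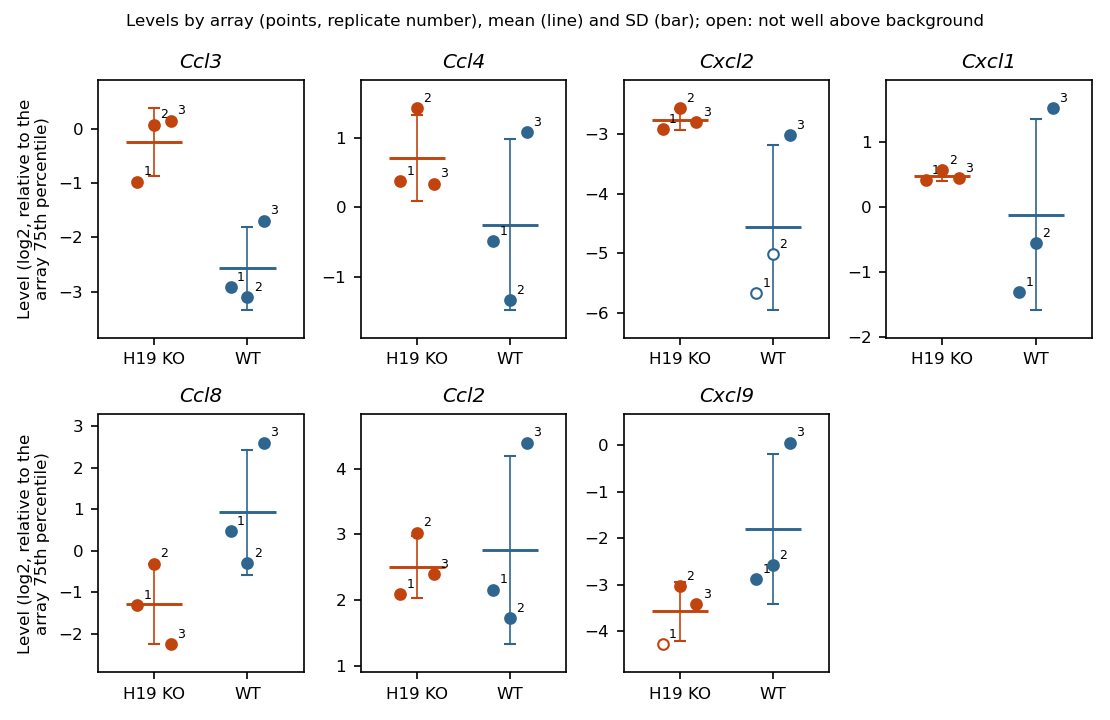
Level of 7 members on each array (log2, relative to the array's 75th percentile), with H19 KO left and WT right in each panel, points numbered by replicate, lines at the mean and bars of 1 SD (n = 3). Open points were not well above background. Ccl3 and Cxcl2 lay higher and Ccl8 and Cxcl9 lower on all H19 KO arrays, while WT replicate 3 was the highest array for Cxcl1, Ccl8, Ccl2 and Cxcl9.

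Ccl8 (MCP-2), a chemokine made by tissue macrophages, was the member with the lowest difference. Its probe (chromosome 11, 81930108 to 81930167, mm9) read -1.30, -0.30 and -2.23 on H19 KO arrays, against 0.47, -0.29 and 2.60 on WT arrays. H19 KO replicate 2 and WT replicate 2 nearly touched. The difference was -2.21 (SE 0.80, 95% interval -4.10 to -0.31, adjusted p = 0.622), with -1.77 on slide 1 and -2.42 on slide 2, and it was -1.37 without WT replicate 3 (adjusted p = 0.224). No motif was matched in the 250 bases before its start (GRCm38.p6, chr11:82114935-82115184, plus strand).
Ccl8: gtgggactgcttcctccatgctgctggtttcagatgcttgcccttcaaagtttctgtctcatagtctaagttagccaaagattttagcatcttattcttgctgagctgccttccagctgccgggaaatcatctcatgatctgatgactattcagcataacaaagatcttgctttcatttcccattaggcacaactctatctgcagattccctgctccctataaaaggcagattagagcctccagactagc
The monocyte chemoattractant genes beside it on chromosome 11 shared the high reading of WT replicate 3. Ccl2 (MCP-1) read 2.10, 3.03 and 2.40 on H19 KO arrays and 2.16, 1.73 and 4.39 on WT arrays. Its difference was -0.26 (SE 0.68) and turned to 0.56 without WT replicate 3. The array carries 10 spots of the Ccl2 probe, whose SD on an array was 0.058 to 0.12, which covers spot noise only. Ccl7 (MCP-3) read -0.35, 0.47 and 0.14 on H19 KO arrays and 0.26, -0.21 and 2.51 on WT arrays, and its difference of -0.76 (SE 0.68) was 0.06 without WT replicate 3. Ccl12 (MCP-5), a Ccr2 ligand found in mouse, read -1.31, 0.06 and -0.84 on H19 KO arrays and 0.04, -1.06 and 0.91 on WT arrays. Ccl11 (eotaxin), the eosinophil attractant of the same neighbourhood, had its lowest value of -2.37 on WT replicate 3 and read -1.87, -1.98 and -1.06 on H19 KO arrays and -1.95 and -1.64 on the other WT arrays.

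Grouped by position, the members of chromosome 11 between 81850650 and 81990227 (mm9; Ccl2, Ccl7, Ccl11, Ccl12 and Ccl8 tested, Ccl1 dim) had mean deviations of -0.70, 0.10 and -0.47 on H19 KO arrays, against 0.05, -0.44 and 1.46 on WT arrays. The MIP group between 83339296 and 83478111 on the same chromosome (Ccl5, Ccl9, Ccl6, Ccl3 and Ccl4) had -0.46, 0.83 and 0.20 on H19 KO arrays and -0.33, -0.41 and 0.18 on WT arrays. Its members differed in sign. Ccl3 and Ccl4 had positive differences, whereas Ccl5 (RANTES), a T cell attractant, had -0.56 (SE 0.49), Ccl6 had -0.54 (SE 0.37) and Ccl9 had -0.32 (SE 0.37). Cxcl1 and Cxcl2 had 0.49, 0.74 and 0.56 on H19 KO arrays, against -1.75, -1.05 and 0.995 on WT arrays.

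**Figure D4:**
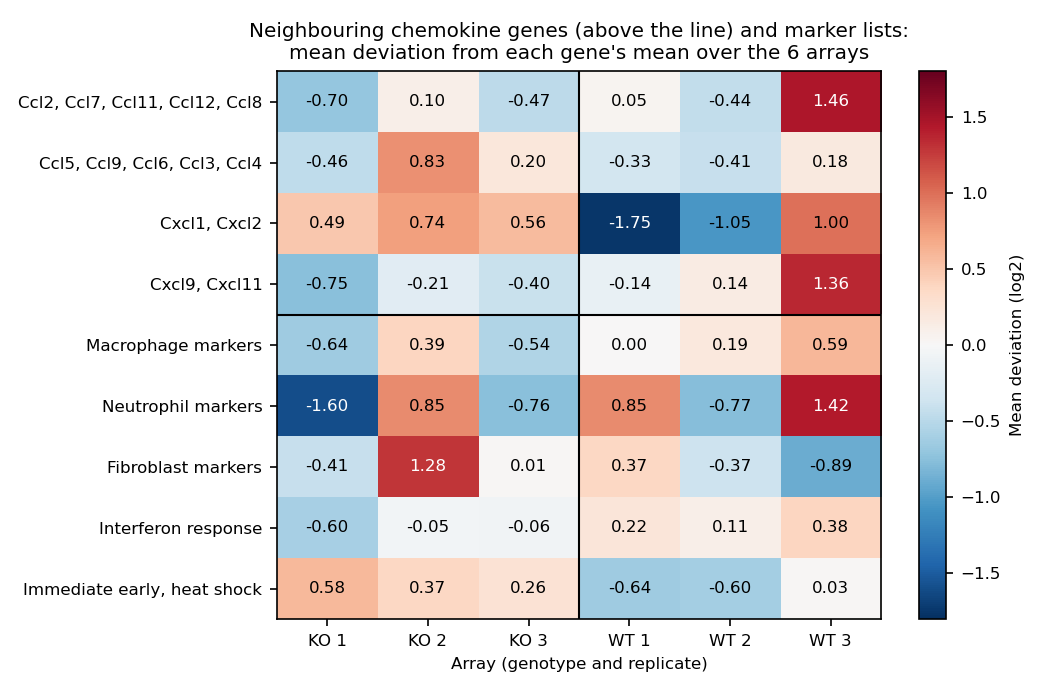
Mean deviation from each gene's mean over 6 arrays (log2, red high and blue low) for 4 groups of tested members that lie within 200000 bases of each other (above the line) and for marker and response lists (under it), by array, with H19 KO left of WT. WT replicate 3 reads 1.46 for the Ccl2 group and 1.36 for Cxcl9 and Cxcl11, and the macrophage and neutrophil markers read 0.59 and 1.42 there.

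Cxcl9 (MIG), an interferon-gamma-induced attractant of T cells through Cxcr3, lay lower on all H19 KO arrays under the 75th percentile scaling. Its probe (chromosome 5, 92752191 to 92752250, mm9) read -4.28, -3.02 and -3.41 on H19 KO arrays, against -2.88, -2.57 and 0.06 on WT arrays. The difference was -1.77 (SE 0.78, adjusted p = 0.631), -1.40 on slide 1 and -1.96 on slide 2, and it was -0.85 without WT replicate 3. The gene's other probe, well above background on all 6 arrays, did not overlap between genotypes either and gave -1.26 (SE 0.44). The promoter stretch of Cxcl9 (GRCm38.p6, chr5:92328080-92328329, minus strand) held none of the 4 motifs.
Cxcl9: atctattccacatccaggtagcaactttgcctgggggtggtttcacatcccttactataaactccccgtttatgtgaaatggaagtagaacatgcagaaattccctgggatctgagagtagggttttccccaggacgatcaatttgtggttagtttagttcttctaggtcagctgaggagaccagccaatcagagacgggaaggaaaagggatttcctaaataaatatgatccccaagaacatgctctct
Cxcl10, its neighbour and another Cxcr3 ligand, was well above background on WT replicate 3 alone, at -2.21, and read -5.65, -4.69 and -5.18 on H19 KO arrays and -4.26 and -5.49 on the other WT arrays. Cxcr3 itself read -5.31, -3.48 and -2.82 on H19 KO arrays and -4.19, -4.24 and -4.09 on WT arrays, with the WT arrays inside the H19 KO range. Of the 14 tested genes of the interferon response 0 were called (3 at an unadjusted p under 0.05, against 7.94% of all genes). Of their differences 12 were negative (median -0.45), as were 63.7% over all genes, and 6 genes were lower without overlap, as were 8.67% of all genes. Gbp5 and Gbp3, interferon-induced guanylate-binding proteins, had -1.16 (SE 0.26) and -1.19 (SE 0.32). Their part in the Cxcl9 value was not tested.

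Of the receptors with differences below 0, Cxcr6, the receptor of Cxcl16 on T and NK cells, had -0.41 (SE 0.28; 0.018 under median scaling), and Ccr9, the gut-homing receptor of Ccl25, had -0.34 (SE 0.75). Ccr9 was well above background on only 3 of 6 arrays. Cx3cr1 read -0.56, 1.21 and -0.26 on H19 KO arrays and 1.09, 0.30 and 1.62 on WT arrays. H19 KO replicate 2 lay among the WT arrays, and the difference was -0.87 (SE 0.53, adjusted p = 0.735). It was -0.52, -1.41 and -0.56 without H19 KO replicate 1, H19 KO replicate 2 and WT replicate 3.

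Macrophage markers also had lower readings in H19 KO. Of 17 tested macrophage markers 0 were called and all 17 had negative differences, where 63.7% of all genes had. Their median was -0.59, and that of all genes was -0.06. The mean deviations of these markers were -0.64, 0.39 and -0.54 on H19 KO arrays, against 0.00, 0.19 and 0.59 on WT arrays. Adgre1, a macrophage surface receptor, had -0.67 (SE 0.36) and C1qa, a complement component, -0.58 (SE 0.36), while Cd163 was dim on all 6 arrays. In such bulk samples fewer cells of a type and less RNA per cell cannot be told apart. The 5 tested neutrophil markers had a median of -0.92 with 0 called. Their mean deviations were -1.60, 0.85 and -0.76 on H19 KO arrays and 0.85, -0.77 and 1.42 on WT arrays. The summed level of the neutrophil list was 38.4 to 51.5 in H19 KO and 41.7 to 49.7 in WT. That sum is linear and mostly reads Csf3r, with mean log2 levels of 5.41 in H19 KO and 5.48 in WT. The genotype means of Elane, S100a8, S100a9 and Camp ran between -5.21 and -0.69, so the sum says little about them. Of the T and NK cell markers 8 were tested (median 0.29, 0 called). The summed level of the 11 on the array was 2.16 to 7.52 in H19 KO and 2.27 to 3.84 in WT. The B cell, dendritic cell and platelet lists had 1, 1 and 4 tested markers with medians of -0.19, 0.15 and -0.67, and 0 called in each. At an unadjusted p under 0.05 (limma) stood 0 macrophage, 0 neutrophil, 1 T and NK cell, 0 B cell, 0 dendritic cell and 2 platelet markers. The share over all genes was 7.94%. The part of these cell types in the chemokine values was not tested.

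Higher readings without full separation were found for Cxcl14, Ccl24 and Ccr10. Cxcl14 (BRAK), a ligand of stromal and epithelial cells, read 2.11, 3.48 and 2.38 on H19 KO arrays and 2.29, 1.15 and 0.94 on WT arrays. The difference was 1.20 (SE 0.47, adjusted p = 0.627), but -0.18 on slide 1 and 1.88 on slide 2, and it was 0.78 without H19 KO replicate 2. Under median scaling it was 1.62 (adjusted p = 0.0130). H19 KO replicate 2, the highest array, was also the highest for the fibroblast markers. All 10 of these had positive differences, where 36.3% of all genes had, with 0 called and a median of 0.59 (all genes -0.06). Their mean deviations were -0.41, 1.28 and 0.01 on H19 KO arrays, against 0.37, -0.37 and -0.89 on WT arrays, and their part in the Cxcl14 value was not tested. The medians of the endothelial, mural and mesothelial markers were 0.08, 0.06 and 0.51, with 0 called in each. At an unadjusted p under 0.05 (limma) stood 1 of 10 fibroblast, 0 of 10 endothelial, 0 of 8 mural and 1 of 5 mesothelial markers, against 7.94% of all genes. Ccl24 (eotaxin-2), a Ccr3 ligand of macrophages, read -1.50, -0.62 and -1.37 on H19 KO arrays and -1.26, -2.14 and -2.49 on WT arrays (difference 0.80, SE 0.37, adjusted p = 0.637). The slides disagreed in sign, at -0.24 for slide 1 and 1.32 for slide 2, and leaving out H19 KO replicate 2 gave 0.53. Ccr10, the receptor of Ccl27 and Ccl28, was well above background on 3 H19 KO arrays and 0 WT arrays. It read -2.68, -4.01 and -3.87 on H19 KO arrays and -3.55, -4.72 and -4.85 on WT arrays, so the readings overlapped. The bound of at least 1.34-fold higher in H19 KO rests on replicate 1, since without it the H19 KO mean of -3.94 lay at the WT floor of -3.94, the mean of the lowest readings that pass as well above background. With normexp correction the difference was 0.20, against 0.85 as reported.

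Among the homeostatic and membrane-bound ligands, Cxcl12, Cx3cl1 and Cxcl16 had differences under 0.5 in size. Cxcl14 had the 1.20 given above, and Cxcl13 had -1.54 (SE 1.64). Cxcl12 (SDF-1), the Cxcr4 ligand of stromal cells, read 4.70, 5.20 and 4.91 on H19 KO arrays and 5.72, 5.24 and 5.004 on WT arrays. The difference was -0.39 (SE 0.23, 95% interval -0.94 to 0.17; 0.036 under median scaling), and the gene's other probe gave -0.03 (SE 0.20). Its receptors Cxcr4 and Cxcr7 had 0.28 (SE 0.26, 95% interval -0.33 to 0.89) and 0.25 (SE 0.16, 95% interval -0.13 to 0.63). Cx3cl1 (fractalkine), the anchored ligand of Cx3cr1, had -0.02 (SE 0.26, 95% interval -0.65 to 0.60; 0.40 under median scaling), and Cxcl16, the anchored ligand of Cxcr6, had -0.30 (SE 0.34; 0.13 under median scaling). Ccl19, another Ccr7 ligand, had -0.43 (SE 0.25), and its 3 probes all gave negative differences. Of the 7 genes with more than 1 tested probe, 2 (Ccl25 and Ccl27a) had probes of opposite sign. The differences of the remaining tested members were 0.33 for Ccr7, the lymph node-homing receptor, 0.30 for Cxcr3, 0.17 for Ccl27a, -0.14 for Ccl25 and -0.14 for Ccr6. Of these, Ccr7, Cxcr3 and Ccr6 were each well above background on only 3 of 6 arrays. Cxcl13, the B cell attractant, spread most, with -6.13, -6.87 and -1.21 on H19 KO arrays and -4.9995, -0.92 and -3.68 on WT arrays. It was not well above background on H19 KO replicates 1 and 2 and WT replicate 1, so its spread sets dim readings against detected ones.

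The genes around the chemokine system gave no call either (limma). At an unadjusted p under 0.05 (limma) stood 3 of 25 genes of receptor signalling and 1 of 19 inducing genes. So did 2 of 6 atypical members and 1 of 11 processing proteins, where 7.94% of all genes did. Of 25 tested genes of receptor signalling 18 had negative differences (median -0.20), where 63.7% of all genes had (median -0.06). Pik3r5, the regulatory subunit of the G protein-coupled PI3 kinase gamma of leukocytes, had -1.12 (SE 0.24) with no overlap. It was well above background on 1 H19 KO array and 3 WT arrays, so its difference runs in part against dim readings. Rgs1, which shortens G protein signals, had 0.99 (SE 0.40). Of 19 tested inducing cytokines and NF-kB genes 10 had positive differences (median 0.01), where 36.3% of all genes had. Among them Nfkbiz, an NF-kB cofactor induced by interleukin 1, had 0.81 (SE 0.21) with no overlap and Irf1, a transcription factor of the interferon response, had -0.80 (SE 0.34). Among 6 tested atypical receptors and ligands with other names (median -0.19), Ccrl2, which presents chemerin, was lower on all H19 KO arrays at -1.14 (SE 0.32), and Ackr4, which scavenges Ccl19, Ccl21 and Ccl25, had 1.45 (SE 0.55). Of 11 proteins that process or present chemokines (median 0.05), the proteases Mmp8 and Mmp2 had -0.69 (SE 0.26) and 1.20 (SE 0.55). Mmp8 was likewise well above background on 1 H19 KO array and 3 WT arrays.

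Across the settings tried, 4 non-overlapping members kept the sign of their difference. Ccl3 ran between 1.70 and 2.75, Cxcl2 between 0.65 and 2.58, Cxcl9 between -2.31 and -0.85, and Ccl8 between -2.82 and -1.37. Cxcl2 had no value where every probe had to be well above background on all 6 arrays. The sign of these 4 is fixed in part by their choice, since groups that do not overlap keep it when 1 array is left out. Ccl8 and Cxcl9 did overlap between genotypes with quantile normalization, with median scaling and with the authors' deposited values, whereas Ccl3 and Cxcl2 overlapped in none of the settings that gave them a value.

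**Figure D5:**
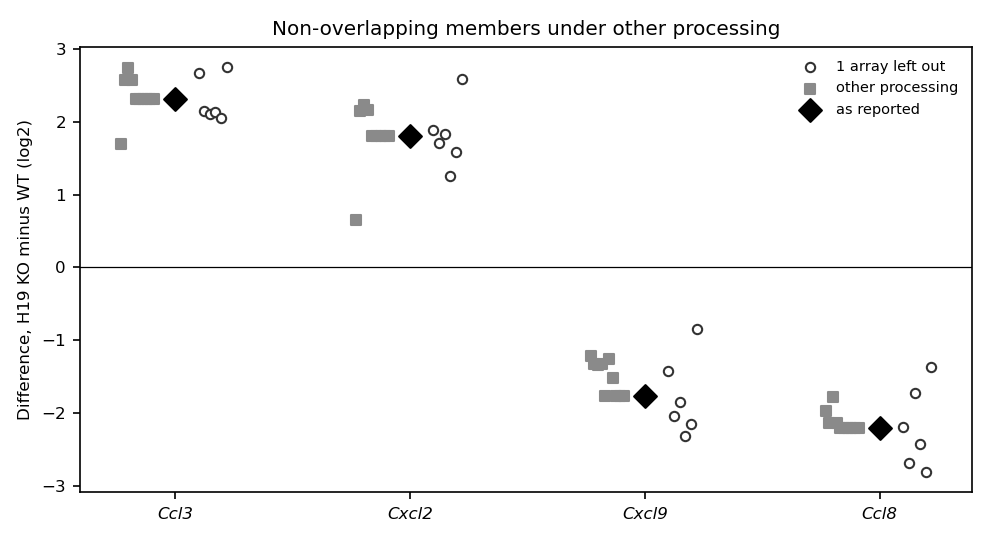
Difference, H19 KO minus WT (log2), of 4 non-overlapping members as reported (diamond), under other processing (squares) and with 1 array left out (circles). The lowest Cxcl2 square (0.65) is normexp background correction, and the circles nearest 0 for Cxcl9 (-0.85) and Ccl8 (-1.37) leave out WT replicate 3.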

How the data were processed

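RNA of cardiomyocyte fractions was profiled on 6 arrays, 3 per genotype, grouped by the genotype in the labels. Per the file headers, Agilent Feature Extraction 10.7.3.1 gave each spot a background-subtracted intensity that is not normalized between arrays, other values such as flags for spots well above background, and probe coordinates on mm9. The authors' deposited value table holds a linear intensity per spot, with the same median of 69.7 on all arrays and spots in the scanner's rank order (correlation 1), so it was quantile-normalized and not centred; its software is not stated in the sources used.

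Processed intensities were put on a log2 scale relative to each array's 75th percentile (774 to 1152). Control and outlier spots were left out, and spots of a probe averaged (32 of 55681 probes had no usable spot on every array). Gene names came from RefSeq (GRCm38.p6), by accession for 26411 probes, by symbol for 3984 and by synonym for 826. The tested probes passed the background flag on 3 or more of the 6 arrays, with 1 kept per gene by the highest mean, giving 21888 genes. limma 3.58.1 (lmFit and eBayes, R 4.3.3) compared H19 KO with WT, two-sided, with Benjamini-Hochberg adjustment over all genes at 0.05, and all SE and adjusted p-values are from this test. A bound sets the brighter genotype's mean against the lowest well-above-background signal, or the probe's own where higher, of the dimmer genotype's arrays. Sequences came from the probe columns and a RefSeq promoter table, read with Python 3.11.15.

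The members and lists were chosen with earlier results of these data known. The genes named were the non-overlapping members, up to 8 further members per direction by p, members well above background in 1 genotype, 3 members by p of each role, and up to 3 of each other list; Ccl2, Ccl7, the cell-type markers of macrophages beyond these and the other members given with values were added after their values were seen. Slide 1 held replicate 1 of H19 KO and WT, and slide 2 held the other arrays. On simulated data with 21888 genes 50 genes were changed at each size. The procedure found 0 of those changed 1.5-fold, 13 of those changed 2-fold, 45 of those changed 4-fold and all 50 of those changed 8-fold, and it made 9 false calls. These counts hold for the simulated spread and number of changed genes and do not give the share found among the members. In the data Ccl3 at 4.97-fold and Ccl8 at 4.61-fold were not called. Alternatives were the replicate number or the slide as a block, leaving out each array, quantile normalization, median scaling, normexp background correction with an offset, the authors' values, looser and stricter filters, averaged probes and an intensity trend with a robust prior. The number of arrays limits the precision. The values of 1 member and of 1 gene of a list, although counted, are not reported here.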

Additional observations from a re-analysis of the deposited data

How the results depend on the processing

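Of the 26 members followed under the alternatives, 18 kept their direction in each one run. The cause of the changes below was not tested, except that scaling to the median of all probes adds 1 constant to every difference. That scaling called 3 members (Ccl3, Cxcl2 and Cxcl14) and 118 of 21888 genes, and gave a median of 0.25 (all genes 0.36). It gave 9 non-overlapping members (25%, all genes 13.7%) and 25 positive differences of 36 (69.4%, against 36.1% as reported). It turned Cxcl12 to 0.036, Cxcr6 to 0.018, Cxcl11 to 0.38, Cxcl16 to 0.13, Cx3cl1 to 0.40 and Ccl2 to 0.17. Non-overlapping members numbered 8 of 55 with no filter (14.5%, all genes 11.2%). They numbered 3 of 26 where every array had to be well above background (11.5%, all genes 8.33%). Normexp correction turned Cx3cl1 to 0.011. Leaving out 1 array gave 0 to 1 members called, a median of -0.45 to 0.011 and 12 to 19 positive differences. Non-overlapping members, which fewer arrays make easier, then numbered 5 to 12 (13.9% to 33.3%, all genes 15.2% to 29.7%). It gave -0.26 to 0.19 for Cx3cl1, -0.0046 to 1.41 for Cxcl1, -0.10 to 0.03 for Cxcl11, -0.77 to 0.56 for Ccl2 and -1.30 to 0.064 for Ccl7. It turned Cx3cl1 to 0.0048 without H19 KO replicate 1, 0.19 without H19 KO replicate 3 and 0.10 without WT replicate 1, Cxcl1 to -0.0046 without WT replicate 1, Cxcl11 to 0.030 without WT replicate 2, and Ccl2 to 0.56 and Ccl7 to 0.064 without WT replicate 3. Over all genes the count called was 3 with quantile normalization and with the deposited values, 1 with no filter, 1 with slide as a block and 1 to 10 with 1 array left out, against 7 as reported. An adjusted p of 0.10 called 0 members. Correlations of deviations between arrays of the same number were -0.22, -0.051 and 0.037, which show no pairing, but so few values cannot exclude one. With the replicate number as a block 0 members and 1 of 21888 genes were called. No member's difference could change there, since each number holds 1 array of each genotype.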
